A study of Homo sapiens with 6 samples.

Results

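The BCL2 family sets how easily a cell releases cytochrome c from its mitochondria, the step that commits it to intrinsic apoptosis. Pro-survival members hold the effectors BAX and BAK1 in check, the effectors form the pores in the outer mitochondrial membrane, and the BH3-only members sense stress and either bind the pro-survival proteins or activate the effectors. Much of the control of these proteins lies after transcription, so RNA levels describe only part of the balance. HDAC inhibitors such as quisinostat block the removal of acetyl groups from histones, and changes in BCL2 family RNA are among the responses known for this class of drugs.

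Members were chosen by gene name from a list of 10 (BCL2L1, MCL1, BCL2L2, BAX, BAK1, BID, BAD, BIK, BCL2L11 and PMAIP1). Of these, 9 were found by name among the 10066 assembled loci of the expression table, and BCL2L11, which encodes the BH3-only protein BIM, was not analysed here. RNA came from 3 bladder cancer cell lines, RT4 and RT112, both labelled with an FGFR3-TACC3 fusion, and SW780, labelled with an FGFR3-BAIBP2L1 fusion. Each line was cultured for 2 days with DMSO or with quisinostat at 50 nM (RT4), 10 nM (RT112) or 25 nM (SW780), so dose and line cannot be told apart. RT4 cells were grown in McCoy's 5A and the other two lines in DMEM, and 1 label of the SW780 quisinostat library gives its line as SW781 while its title reads SW780. There was 1 library for each line and treatment, and a difference within a line therefore has no replicate check. Values are FPKM, fragments normalised for how long a transcript is and how many fragments were mapped, which allows levels of different genes to be set side by side. Read depth is unknown. In bulk RNA, fewer cells that express a gene and less of its RNA per cell cannot be told apart.

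All 10 urothelial and epithelial markers on the list examined were in the table, and their summed level was 1666 FPKM in RT4 DMSO and 821 FPKM in RT4 quisinostat, 923 and 1459 FPKM in RT112, and 1508 and 940 FPKM in SW780 cells. This sum, mostly keratin RNA, was thus lower with the drug in RT4 and SW780 and higher in RT112 cells, as BAX was. Single markers did not all follow it. By a log2 ratio past 0.3, 2 were higher (EPCAM and CDH1) and 7 lower in RT4 cells. The numbers were 6 and 1 in RT112, and 3 and 7 in SW780 cells, with shares over all loci given below. Their median log2 ratios were -1.21, 0.70 and -0.75 in RT4, RT112 and SW780 cells, and -0.73, 0.37 and -0.67 after the GC correction below. The part of this sum in the results was not tested. Among these markers, KRT5, a basal keratin whose locus also carries the name KRT6A, was at or below 0.45 FPKM in RT4 and SW780 cells. Of 10 markers of blood, endothelial and stromal cells, 3 were in the table, and PTPRC, CD3E, PECAM1, VWF, COL1A2 and DCN were among those not found by name. The summed level of the 3 was 1.16 FPKM in RT4 DMSO and 10.2 FPKM in RT4 quisinostat, 135.4 and 134.5 FPKM in RT112 (nearly all of it LUM, a stromal proteoglycan), and 11.0 and 16.0 FPKM in SW780 cells. The part of these markers in the results was not tested. The log2 ratio of quisinostat over DMSO followed the GC content of the transcript, with a Spearman correlation of -0.50 for RT4, 0.43 for RT112 and -0.23 for SW780 cells across 8258 loci (GC known, mean of at least 1 FPKM). The loci share their libraries and are not independent replicates. Member transcripts ranged from 37.2% GC (PMAIP1) to 66.3% GC (BAD), so ratios corrected for this trend are given beside the plain ones.

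Promoter sequences are shown for 3 members, because BAX and BAK1 are the effectors and PMAIP1 had the largest ratio of any member in RT4 cells. Each is the 250 bases before the RefSeq transcription start in GRCh38.p14, read 5′ to 3′ on the strand of the gene. Capitals mark the GC box GGGCGG (or its complement CCGCCC), the element bound by SP1-like factors, and the E-box CACGTG, bound by MYC- and USF-like factors. The PMAIP1 window lies at chr18:59899746-59899995 on the plus strand, the BAX window at chr19:48954625-48954874 on the plus strand and the BAK1 window at chr6:33580277-33580526 on the minus strand.
PMAIP1: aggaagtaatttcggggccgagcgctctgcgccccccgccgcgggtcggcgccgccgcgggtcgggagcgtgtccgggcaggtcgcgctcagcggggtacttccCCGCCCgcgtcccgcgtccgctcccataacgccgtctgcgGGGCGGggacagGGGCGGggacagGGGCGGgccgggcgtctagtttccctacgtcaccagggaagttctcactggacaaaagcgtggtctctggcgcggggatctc
BAX: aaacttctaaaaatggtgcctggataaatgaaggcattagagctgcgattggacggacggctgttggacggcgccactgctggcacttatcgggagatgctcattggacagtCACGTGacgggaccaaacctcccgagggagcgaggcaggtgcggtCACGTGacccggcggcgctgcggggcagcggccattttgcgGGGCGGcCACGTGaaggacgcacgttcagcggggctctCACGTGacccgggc
BAK1: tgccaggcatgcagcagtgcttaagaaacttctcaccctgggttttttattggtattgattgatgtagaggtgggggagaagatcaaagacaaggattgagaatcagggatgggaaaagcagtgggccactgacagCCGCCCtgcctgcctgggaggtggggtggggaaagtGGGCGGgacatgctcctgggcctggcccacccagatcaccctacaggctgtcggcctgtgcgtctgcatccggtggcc
The PMAIP1 window held 4 GC boxes, the BAK1 window 2 and the BAX window 1, and 42.6% of the 35116 promoter windows examined held at least 1. At least 4 were present in 7.63% of windows. BAX alone among these 3 windows had the E-box, in 4 copies. A single copy or more was present in 6.34% of all windows, while 5 windows in all (0.0142%) reached 4 copies. The cyclic AMP element TGACGTCA, present in 1.65% of windows, was in none of the 3, and these letters were searched on both strands. GC content was 72.8% in the PMAIP1, 62.8% in the BAX and 58% in the BAK1 window, against a median of 58% over all windows. No binding or methylation was measured, so these matches describe the sequences only.

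The levels of the roles overlapped in untreated cells. The pro-survival genes and the effectors lay between 13.1 and 47.5 FPKM in the 3 DMSO libraries, BID and BAD between 4.73 and 23.0 FPKM, and the remaining BH3-only genes BIK and PMAIP1 between 0.595 and 2.66 FPKM. MCL1 had the highest level of all members in 5 of the 6 libraries, and BAX in the RT4 DMSO library. BIK or PMAIP1 had the lowest level in every library, and BID lay above BCL2L2 and BAK1 in RT4 DMSO and above BCL2L1 and BAX in RT112 DMSO. Without replicates, neighbours in this order cannot be told apart beyond error.

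**Figure D1:**
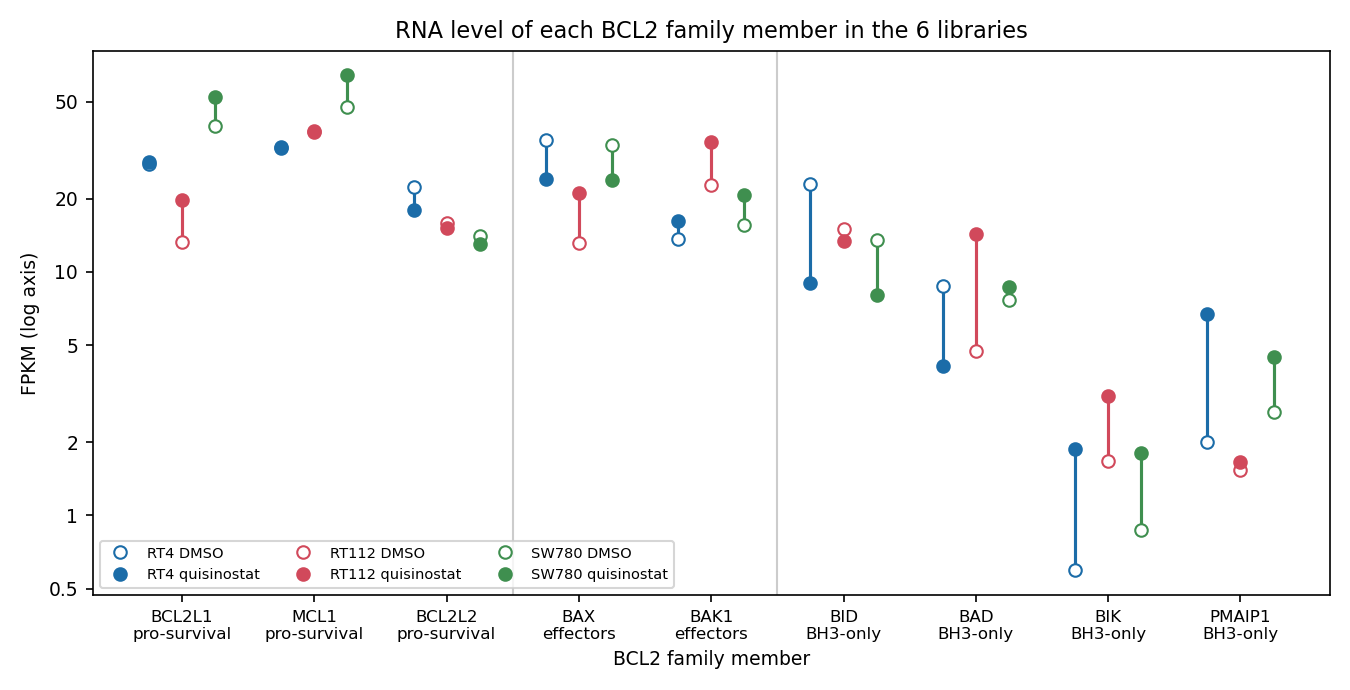
RNA level in FPKM on a log axis for the 9 members, grouped by role. Open points are DMSO and filled points quisinostat libraries, joined within a line, with 1 library per point. Quisinostat points of BIK lie above all of its DMSO points, and those of BID lie below all of its DMSO points.

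MCL1 encodes a short-lived pro-survival protein that holds BAK1 in check and is bound by NOXA, the product of PMAIP1. GENCODE 29 places it on chromosome 1 (GRCh38, 150574551 to 150579738). Its level was 32.7 FPKM in RT4 DMSO and 32.3 FPKM in RT4 quisinostat, 37.4 and 37.7 FPKM in the same order in RT112, and 47.5 and 64.1 FPKM in SW780 cells. RT4 and RT112 cells thus showed close to equal values with and without the drug, and SW780 cells had the higher value with it. The log2 ratios of RT4, RT112 and SW780 cells were -0.02, 0.01 and 0.43, and after the GC correction -0.30, 0.13 and 0.34.

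BCL2L1, whose long isoform is the pro-survival protein BCL-XL, lies on chromosome 20 from 31664452 to 31723989. It stood at 27.8 FPKM in RT4 DMSO and 28.4 FPKM in RT4 quisinostat, at 13.3 and 19.7 FPKM in RT112, and at 39.7 and 52.3 FPKM in SW780 cells. The DMSO libraries differed 2.99-fold between lines, the widest range among the members, and the drug and control values of different lines overlapped. Its log2 ratios were 0.03, 0.57 and 0.40 in RT4, RT112 and SW780 cells. After the GC correction they were 0.48, 0.24 and 0.50, with RT112 cells lowest. The table gives 1 value per locus, so the BCL-XL isoform and the short pro-death isoform are not separated.

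BCL2L2, which encodes the pro-survival protein BCL-W, is on chromosome 14 from 23298790 to 23311759 and shares its assembled locus with PABPN1, a poly(A)-binding protein gene, so its value may hold RNA of both. The locus was at 22.3 FPKM in RT4 DMSO and 18.0 FPKM in RT4 quisinostat, at 15.9 and 15.1 FPKM in RT112, and at 14.1 and 13.1 FPKM in SW780 cells. It was the only pro-survival locus below its control in each line, with log2 ratios of -0.31, -0.08 and -0.10. The RT4 value lies just past the limit of -0.3 that the study used for a lowered gene, and the ratio was -0.23 after the GC correction.

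Both effectors are present in every library, and they differed in how the lines compared. BAX (chromosome 19, 48954815 to 48961798) stood at 34.7 FPKM in RT4 DMSO and 24.1 FPKM in RT4 quisinostat, at 13.1 and 21.1 FPKM in RT112, and at 33.2 and 23.9 FPKM in SW780 cells. RT112 cells had the lowest untreated level and the only higher level with the drug. Log2 ratios were -0.52, 0.68 and -0.47 for RT4, RT112 and SW780 cells. The 3 lines spanned 2.64-fold in DMSO and 1.14-fold in quisinostat, where the median locus with a mean of at least 1 FPKM spanned 1.94-fold and 2.01-fold. BAX has a GC content of 58.9%, and after the GC correction its ratios were 0.13, 0.21 and -0.30, so RT4 and RT112 cells no longer had opposite signs.

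BAK1 (chromosome 6, 33572547 to 33580293) was at 13.6 FPKM in RT4 DMSO and 16.2 FPKM in RT4 quisinostat, at 22.7 and 34.1 FPKM in RT112, and at 15.6 and 20.7 FPKM in SW780 cells. Each line had the higher value with quisinostat, and the RT112 DMSO value exceeded the drug values of the other lines. Its log2 ratios of 0.25, 0.59 and 0.41 put it past 0.3 in RT112 and SW780 cells and just short of it in RT4 cells. The GC-corrected ratios were 0.89, 0.12 and 0.58. As a result of these levels BAX was the more abundant effector RNA in RT4 and SW780 cells and BAK1 in RT112 cells, in both treatments. The ratio of BAK1 to BAX was 0.393 in RT4 DMSO and 0.672 in RT4 quisinostat, 0.469 and 0.866 in SW780, and 1.72 and 1.62 in RT112 cells.

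BIK, a BH3-only gene whose protein sits mainly at the endoplasmic reticulum, was the only member past 0.3 in the same direction in all lines. It lies on chromosome 22 from 43110748 to 43129712. Its level was 0.595 FPKM in RT4 DMSO and 1.86 FPKM in RT4 quisinostat, 1.67 and 3.09 FPKM in RT112, and 0.867 and 1.81 FPKM in SW780 cells. All quisinostat values lay above all DMSO values, although the highest DMSO value (RT112) came close to the lowest drug value (SW780). These are 3.13-fold, 1.85-fold and 2.09-fold differences, or log2 ratios of 1.65, 0.89 and 1.06 for RT4, RT112 and SW780 cells. Between 8.85% and 15.7% of loci had a larger ratio in a single line. The GC-corrected ratios of 2.02, 0.62 and 1.15 were also past 0.3 in each line. BIK is a low gene in these cells, with 11.4% to 20.6% of loci below it in the DMSO libraries, and the precision of such low values is unknown.

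PMAIP1 encodes NOXA, a small BH3-only protein that binds MCL1 and that cell stress is known to induce. Its locus is on chromosome 18 from 59899948 to 59904306, and its promoter is the one with 4 GC boxes above. It was at 2.00 FPKM in RT4 DMSO and 6.74 FPKM in RT4 quisinostat, at 1.53 and 1.65 FPKM in RT112, and at 2.66 and 4.48 FPKM in SW780 cells. The RT112 pair was nearly level while the other pairs were apart, and the RT112 drug value fell among the DMSO values. The log2 ratios were 1.75, 0.11 and 0.75 (GC-corrected 1.20, 0.28 and 0.57). The spread between lines was 1.73-fold in DMSO and 4.09-fold in quisinostat.

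BID, which caspase 8 cleaves to carry a death receptor signal to the mitochondria, had the lowest ratio of the 9 members in each line. Located on chromosome 22 from 17734138 to 17774770, it was at 23.0 FPKM in RT4 DMSO and 9.04 FPKM in RT4 quisinostat, at 15.0 and 13.4 FPKM in RT112, and at 13.5 and 8.01 FPKM in SW780 cells. No quisinostat value reached a DMSO value, but the RT112 drug library and the SW780 control library were nearly equal. The RT4 value was 2.54-fold lower and the SW780 value 1.68-fold lower with quisinostat. Log2 ratios were -1.35, -0.17 and -0.75, and 8.83%, 34.3% and 11.5% of loci in the same lines had a smaller ratio. In RT112 cells the next lowest member was BCL2L2 (-0.08). With a GC content of 49.7% BID moved little under the GC correction, to -1.43, -0.17 and -0.81, in RT112 cells close to BCL2L2 (-0.16).

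BAD, a BH3-only gene whose protein is silenced by phosphorylation from growth factor signals, differed most between the lines. It lies on chromosome 11 from 64269830 to 64284704. Its level was 8.71 FPKM in RT4 DMSO and 4.09 FPKM in RT4 quisinostat, 4.73 and 14.2 FPKM in RT112, and 7.66 and 8.65 FPKM in SW780 cells. RT112 cells went from the lowest control value to the highest drug value, and RT4 cells from the highest control value to the lowest drug value. The log2 ratios were -1.09, 1.59 and 0.18. BAD is the member with the most GC-rich transcript, and the GC trend alone at its GC content stood at -1.38, 1.05 and -0.42 for these lines. Corrected for it, the ratios were 0.29, 0.54 and 0.59, all of 1 sign.

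**Figure D2:**
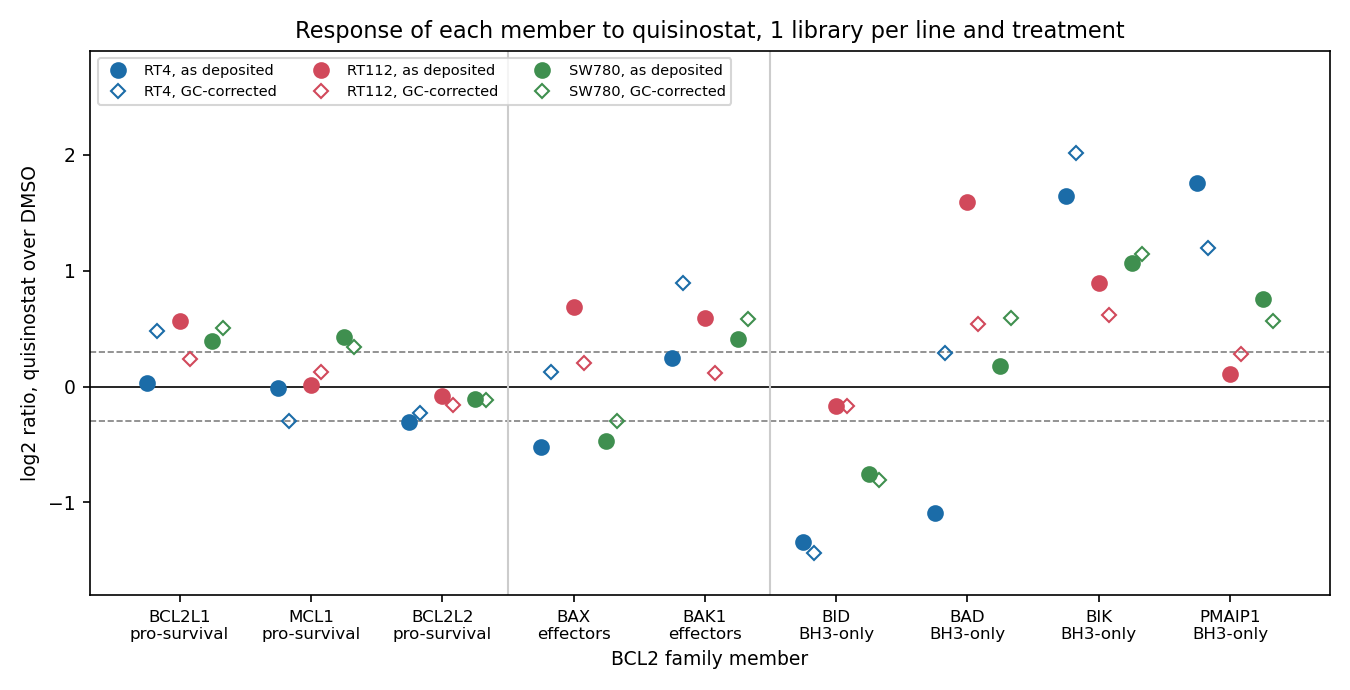
Log2 ratio of quisinostat over DMSO for each member in each line, as deposited (filled points) and after correction for transcript GC content (open diamonds); dashed lines mark 0.3 and -0.3. BIK is past the upper line in all lines on both scales, and BAX and BAD have opposite signs in RT4 and RT112 cells only on the deposited scale.

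**Figure D3:**
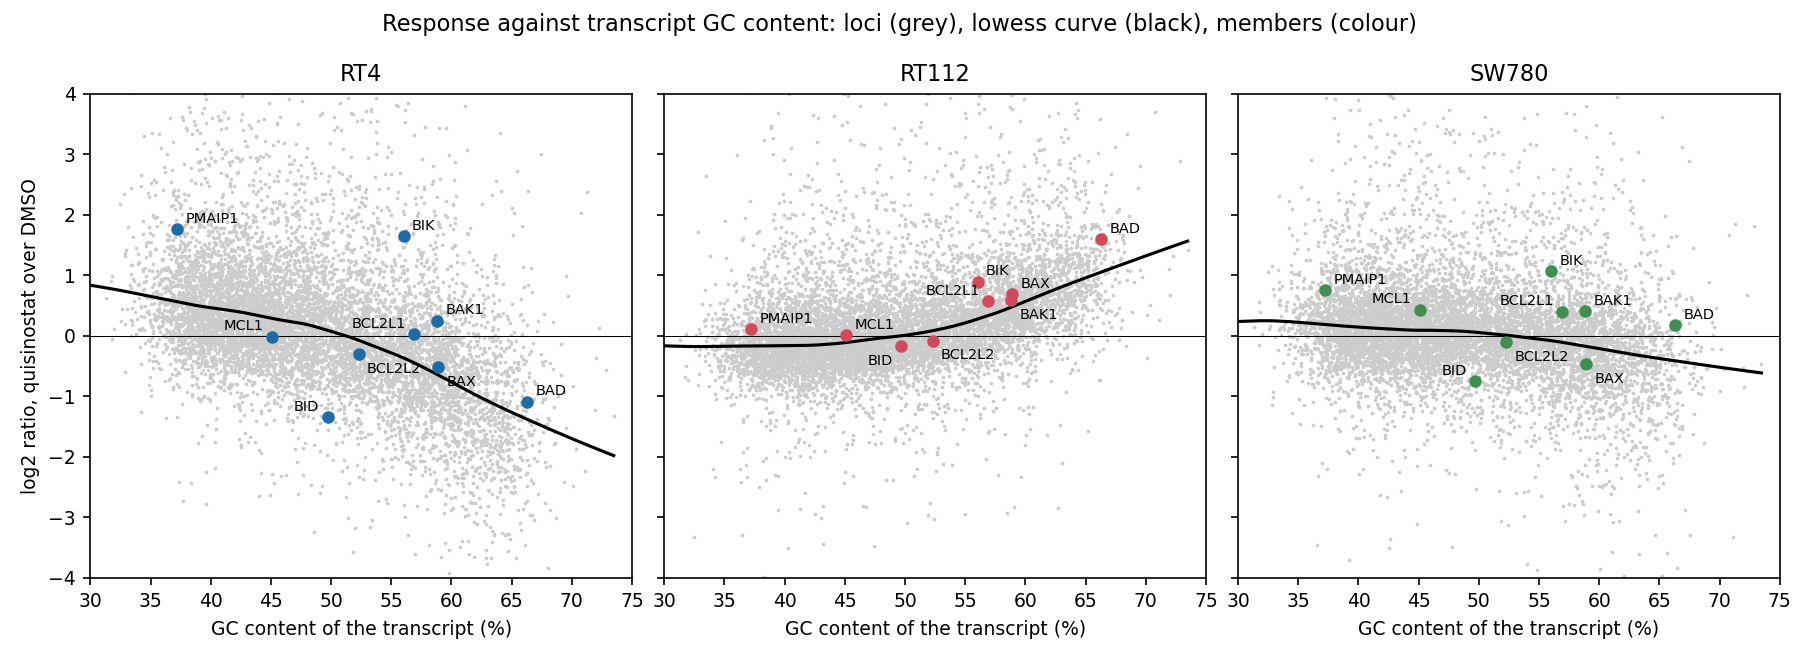
Log2 ratio against GC content of the transcript (%) in each line, with loci in grey, the lowess curve in black and the 9 members in colour; loci beyond the axes are not drawn. The curve falls with GC content in RT4 and SW780 cells and climbs in RT112 cells. BAX and BAD lie near it in RT4 cells, whereas BIK lies above it in every line and BID below it.

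Counted over the 9 members with the limit of 0.3, RT4 cells had 2 higher and 4 lower, RT112 cells 5 higher and 0 lower, and SW780 cells 5 higher and 2 lower. Among 9112 loci above 0 in all libraries, the higher and lower shares were 40.3% and 33.5% for RT4, 36.0% and 25.2% for RT112, and 32.8% and 28.2% for SW780 cells. By line, the members had a median ratio of -0.02 (RT4), 0.57 (RT112) and 0.40 (SW780), against 0.08, 0.06 and 0.04 over all loci. Past the limit in all 3 lines, BIK was the 1 higher member of 9 (11.1%), beside 11.4% of all loci, and no member was lower, beside 4.99% of all loci. The share of members higher in all lines was therefore near that of the table as a whole. After the GC correction RT4 cells had 4 higher and 2 lower members (median 0.29), RT112 cells 2 and 0 (median 0.21) and SW780 cells 6 and 1 (median 0.50). BIK was then still the 1 member higher in all lines and none was lower, where 11.3% of 8407 loci were higher and 7.72% lower.

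By sign alone, 4 members (BCL2L1, BAK1, BIK and PMAIP1) were above 0 in all lines, where 22.9% of loci were, and 2 (BCL2L2 and BID) were below 0, where 16.6% of loci were. Those above 0 included a pro-survival gene, an effector and a pair of BH3-only genes, so the sign did not follow the role. The sign of PMAIP1 in RT112 cells turned with quantile normalization (-0.58), and that of BCL2L1 in RT4 cells turned when ratios were centred on their median (-0.051). The DMSO and quisinostat libraries did not overlap for BIK (higher, as for 6.18% of loci) and BID (lower, as for 4.43% of loci).

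When the 3 lines were used as replicates in limma, with line as a block, no member and none of 9430 loci (0%) passed an adjusted p-value of 0.05 with Benjamini-Hochberg adjustment. At an unadjusted p-value under 0.05 there was 1 member, BID (11.1% of members), against 13.8% of loci, 913 of them higher and 392 lower. These p-values measure the spread between lines that also differed in dose. On the log2(FPKM + 1) scale, which understates the change of low genes, the limma estimate for BID was -0.70 (standard error 0.26, adjusted p = 0.345) and it was lower in 3 of 3 lines. For BIK limma gave 0.68 (standard error 0.30, adjusted p = 0.380), for PMAIP1 0.67 (standard error 0.34, adjusted p = 0.419) and for BAK1 0.40 (standard error 0.18, adjusted p = 0.398), each higher in 3 of 3 lines. The standard errors of BAX (0.28, around -0.11) and BAD (0.45, around 0.21) were larger than their estimates. The same held for the pro-survival genes MCL1 (0.18, around 0.14) and BCL2L2 (0.18, around -0.16). For the remaining pro-survival gene, BCL2L1, limma gave 0.32 (standard error 0.19, adjusted p = 0.478), and it was higher in 3 of 3 lines.

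Adding up the FPKM of each side gives the balance of pro-death RNA (BAX, BAK1, BID, BAD, BIK and PMAIP1) to pro-survival RNA (MCL1, BCL2L1 and BCL2L2). In untreated RT4, RT112 and SW780 cells the pro-death sums were 82.6, 58.7 and 73.4 FPKM, and the pro-survival sums were 82.8, 66.6 and 101.3 FPKM. The ratio of pro-death to pro-survival RNA was thus 0.997, 0.881 and 0.725 in these lines. With quisinostat it was 0.788, 1.21 and 0.522. On the log2 scale the ratio differed from its control by -0.34 in RT4 and -0.47 in SW780 cells, towards pro-survival RNA, and by 0.45 in RT112 cells, towards pro-death RNA. There is no replicate check on these differences.

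**Figure D4:**
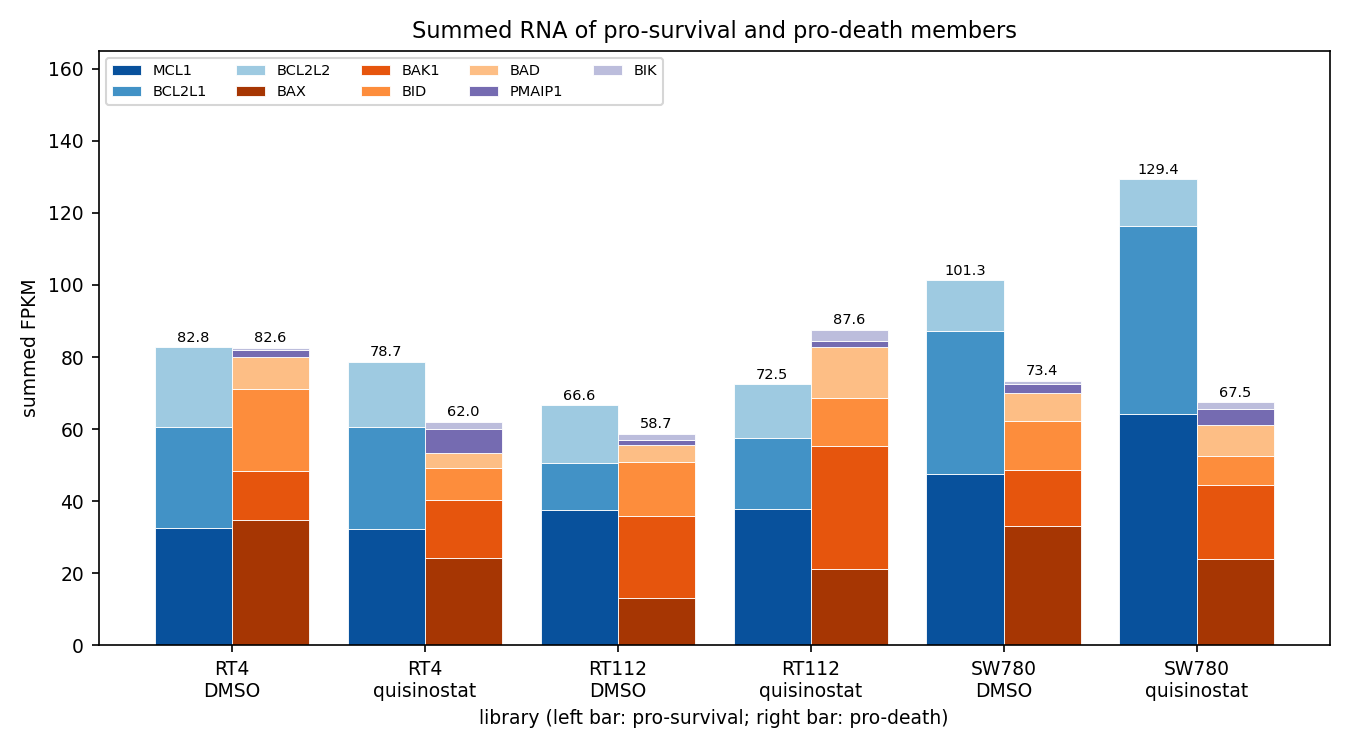
Summed FPKM of pro-survival members (left bar, blue) and pro-death members (right bar, orange and purple) in each library, with 1 library per pair of bars and the sum printed above each bar. The pro-death bar is taller than its neighbour only in the RT112 quisinostat library.

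Different members made up these differences. In SW780 cells the pro-survival sum was 129.4 FPKM with quisinostat, with higher values of MCL1 and BCL2L1, and the pro-death sum was 67.5 FPKM. RT4 cells had nearly the same pro-survival sum (78.7 FPKM) and a lower pro-death sum (62.0 FPKM), mainly through BAX and BID. Without BID the difference in RT4 cells was -0.096, an alternative chosen after the data were seen. In RT112 cells the pro-death sum went to 87.6 FPKM, while the pro-survival sum was 72.5 FPKM. The difference from control came mainly from BAK1 (22.7 and 34.1 FPKM), BAD (4.73 and 14.2 FPKM) and BAX (13.1 and 21.1 FPKM). All 3 ratios were largely those of the GC trend. In RT112 cells the trend alone stood at 0.47 for BAK1, 1.05 for BAD and 0.48 for BAX. The log2 ratios were 0.59, 1.59 and 0.68 as deposited, and 0.12, 0.54 and 0.21 after the GC correction. Leaving out BAD alone therefore does not take the GC trend out of the balance. Without BAD the difference in RT112 cells was 0.32, also an alternative chosen after the data were seen.

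These balance values rest on the abundant members and on the scale. With GC-corrected quisinostat values the differences of RT4, RT112 and SW780 cells were 0.088, 0.047 and -0.32, and SW780 cells alone remained past 0.3. With each member given equal weight, as a mean of log2(FPKM + 0.1), they were 0.19, 0.44 and -0.061.

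Among the 4 BH3-only members in the table, the share of BID in their summed RNA was lower with quisinostat in every line. Other BH3-only genes such as BMF are not in this sum, and the shares were not GC-corrected. BID made up 67.0% of this sum in RT4 DMSO and 41.6% in RT4 quisinostat, 65.4% and 41.3% in RT112, and 54.7% and 34.9% in SW780 cells. BIK and PMAIP1 together made up 7.56% and 39.6% in RT4, 13.9% and 14.7% in RT112, and 14.3% and 27.4% in SW780 cells. BAD made up 20.6% of the RT112 DMSO and 44.0% of the RT112 quisinostat sum. BID itself differed little in RT112 cells (15.0 and 13.4 FPKM), while BAD was at 4.73 and 14.2 FPKM. Among the pro-survival genes, MCL1 was 1.18 times BCL2L1 in RT4 DMSO and 1.14 times in RT4 quisinostat, 1.20 and 1.23 times in SW780, and 2.82 and 1.92 times in RT112 cells.

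Other genes of the pathway were taken from 5 lists with 59 gene names, of which 47 were in the table and 44 had values above 0 in all libraries. Higher in all 3 lines were 3 of the 44, TNFSF10 and TRADD among them, and 0 were lower in all lines, where 11.4% and 4.99% of all loci were. These counts are small, and whether they differ from the table as a whole was not tested. By line, the numbers higher and lower of these 44 were 17 and 9 for RT4, 9 and 11 for RT112, and 11 and 9 for SW780 cells. The same shares of all loci were 40.3% and 33.5% for RT4, 36.0% and 25.2% for RT112, and 32.8% and 28.2% for SW780 cells. TNFSF10 encodes the death ligand TRAIL. Its level was 2.34 FPKM in RT4 DMSO and 38.8 FPKM in RT4 quisinostat, 34.6 and 83.9 FPKM in RT112, and 11.4 and 17.5 FPKM in SW780 cells. Each line was higher with the drug, by log2 ratios of 4.06, 1.28 and 0.62 (GC-corrected 3.60, 1.44 and 0.48; limma estimate 1.80, standard error 0.57, adjusted p = 0.317). TRADD, an adaptor of the TNF receptor, had log2 ratios of 0.53, 0.50 and 0.67, but its RT112 ratio turned to -0.46 with the GC correction (1.79 and 1.05 in RT4 and SW780 cells).

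Of 13 other BCL2 family names, 7 were in the table, and none of the 6 with ratios was past 0.3 in the same direction in all lines. BCL2 itself was low, at 1.81 FPKM in RT4 DMSO and 3.88 FPKM in RT4 quisinostat, 0.45 and 0.44 FPKM in RT112, and 0.58 and 0.53 FPKM in SW780 cells. BMF, a BH3-only gene tied to the cytoskeleton, was at 1.05 FPKM in RT4 DMSO and 2.93 FPKM in RT4 quisinostat, was listed at 0 in RT112 DMSO and stood at 1.94 FPKM in RT112 quisinostat, and was at 0.17 and 1.42 FPKM in SW780 cells. BMF was thus higher with the drug in each line, as BIK was and as were 22.9% of loci above 0 in all libraries. Because of its value of 0, BMF has no ratios and no GC correction and is not among the 44 genes above. Its levels are low, and their precision is unknown. BOK, an effector-like member, had log2 ratios of -1.35, 1.43 and 0.15 (GC-corrected 0.0041, 0.40 and 0.56). BCL2L12 had -1.34, 0.06 and -1.68 (GC-corrected -0.67, -0.44 and -1.50), and BCL2L13 had 0.07, 0.39 and -0.14 (GC-corrected -0.13, 0.43 and -0.22). The mitophagy receptors BNIP3 and BNIP3L were higher in RT4 (1.99 and 1.16) and SW780 cells (1.19 and 0.58). In RT112 cells BNIP3 was lower (-1.87) and BNIP3L stayed within 0.3 (-0.24). GC-corrected ratios in RT4, RT112 and SW780 cells were 2.00, -1.92 and 1.17 for BNIP3 and 0.66, -0.07 and 0.42 for BNIP3L.

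On the list for mitochondrial exit and the apoptosome, 13 of 13 genes were in the table. CYCS, which encodes cytochrome c, had log2 ratios of 0.53, -0.79 and 0.53 (RT4, RT112, SW780), and 0.11, -0.62 and 0.41 after the GC correction. APAF1, the scaffold of the apoptosome, had 0.49, 0.51 and -0.24 (GC-corrected 0.071, 0.67 and -0.36). The initiator CASP9 (-0.09, 0.12 and 0.09) stayed within 0.3 in every line. For the inhibitors of apoptosis, 4 of 5 were in the table, and the ratios of XIAP were 0.12, -0.78 and 0.34 (GC-corrected -0.37, -0.61 and 0.18). BIRC5, which shares its locus with AFMID, had -0.39, -0.01 and -0.50 (GC-corrected -0.32, -0.09 and -0.51).

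Upstream, the death receptor list had 11 of 13 genes in the table, 9 of them with ratios. CASP8, the protease that cleaves BID, was at 8.66 FPKM in RT4 DMSO and 19.2 FPKM in RT4 quisinostat, 9.56 and 8.78 FPKM in RT112, and 24.0 and 25.8 FPKM in SW780 cells. Its level was thus apart in RT4 cells and close to equal in the other lines. CFLAR, its inhibitor, was not found by name. The list of turnover factors and regulators had 12 of 15 genes in the table and none past 0.3 in all lines.

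**Figure D5:**
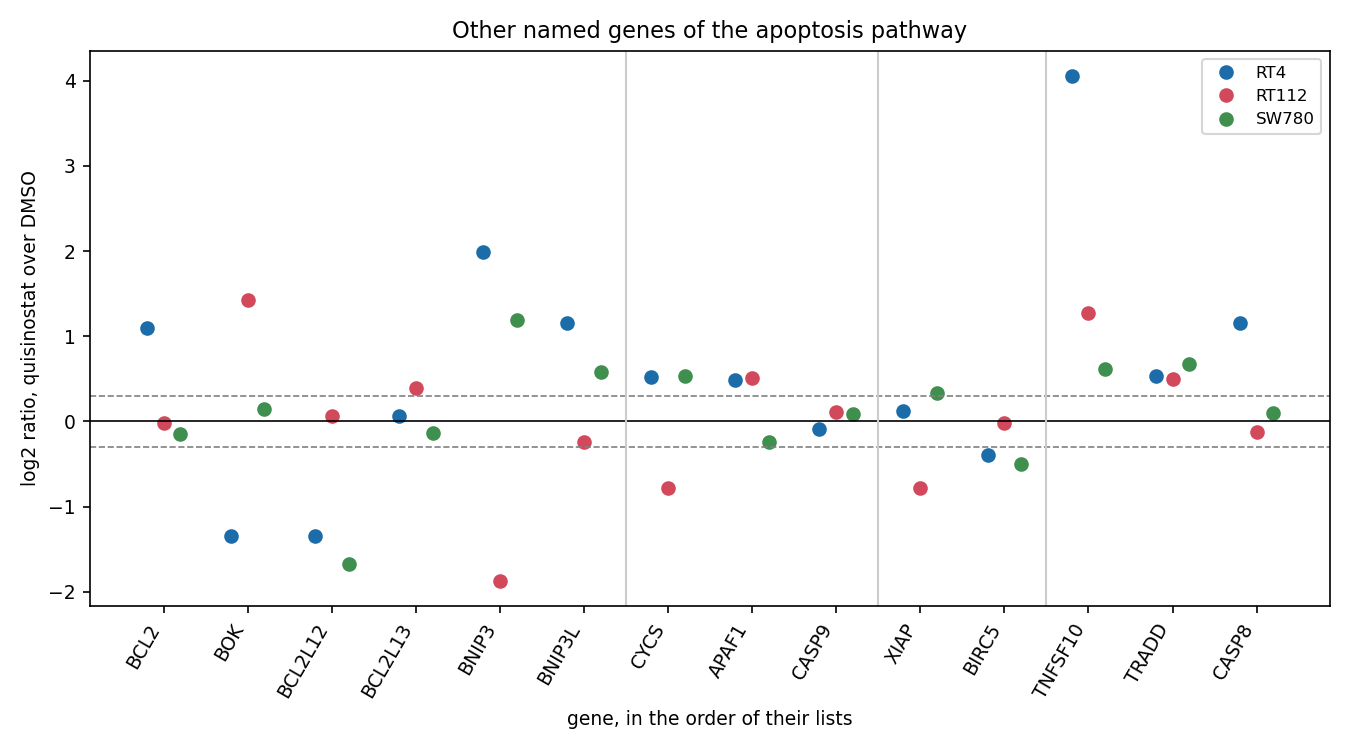
Log2 ratio of quisinostat over DMSO in each line for other genes of the pathway named in the text that were above 0 in all libraries, in the order of their lists (grey lines divide them; dashed lines mark 0.3 and -0.3). TNFSF10 and TRADD are above the upper dashed line in every line (TRADD not in RT112 cells after the GC correction), and RT112 cells stand apart from the others at BNIP3 and CYCS.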

How the data were processed

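RNA of 6 libraries (3 lines, DMSO or quisinostat, 1 library each) was analysed from 1 deposited table. Per the labels' processing notes, the tools named are CASAVA 1.8.2, Trimmomatic 0.36, HISAT2 2.2.1, SAMtools 1.15.1 and StringTie 2.2.1, with genome GRCh38, and the paper adds Ballgown; libraries were stranded and poly(A)-selected. The authors deposited FPKM values, 1 per assembled locus. No read counts are given, so depth and counting error are unknown. How rows were chosen and how reads of related genes were shared are not given in the sources used here.

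For loci above 0 in all libraries, quisinostat was divided by DMSO within each line and the log2 taken. The limit of -0.3 is the study's for lowered genes, and 0.3 was set to mirror it. limma 3.58.1 (R 4.3.3) was fitted to log2(FPKM + 1), keeping loci whose mean was 1 FPKM or more. The model held treatment and a line block, with trended variances and p-values adjusted by Benjamini-Hochberg. The 2 libraries of a line form a pair because they come from the same line. GC content was that of each gene's longest coding transcript (else its longest) in GENCODE 29 (92.3% of loci, all 9 members), and a lowess curve (span 0.3) was subtracted. The limma fit and the GC correction were tested on simulated data, with planted changes larger than the limma estimates of the members. Python 3.11.15 was used. Gene positions are those of GENCODE 29 on GRCh38, and promoters come from RefSeq (GRCh38.p14), with windows for 7 of the 10 members and none for MCL1, BCL2L2 and BIK.

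Members and lists were chosen with earlier results of these data known. Genes named were the members, the other BCL2 family genes found, CASP8, CASP9, CYCS, APAF1, XIAP, BIRC5, CFLAR, and genes of the 5 lists past 0.3 in the same direction in all lines with a mean of at least 1 FPKM. Some genes under this rule are not reported here. Alternatives were pseudocounts of 0.1 and 1, limits of 0.5 and 1, centring, a common sum, quantile normalization, the GC correction, filters, other forms of the balance and leaving out a line. Balances without BCL2L2, BAD or BID were added after seeing the data.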

Additional observations from a re-analysis of the deposited data

Results flagged for a closer look

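The following genes were past 0.3 in one direction in 1 line and past 0.3 in the other direction in another. Each difference is between single libraries at different doses and was not tested. The log2 ratio of BAX was 1.21 higher in RT112 than in RT4 cells, and that of BAD was 2.68 higher. After the GC correction the ratios of BAX were 0.21 in RT112 and 0.13 in RT4 cells, and those of BAD were 0.54 and 0.29. The ratio of BOK was 2.78 higher in RT112 than in RT4 cells, with GC-corrected ratios of 0.40 and 0.0041. That of BNIP3 was 3.86 higher in RT4 than in RT112 cells (GC-corrected 2.00 and -1.92). CYCS was 1.31 higher and XIAP 1.11 higher on the same scale in SW780 than in RT112 cells. Their GC-corrected ratios in SW780 and RT112 cells were 0.41 and -0.62 for CYCS and 0.18 and -0.61 for XIAP, so BAX, BAD, BOK and XIAP were then no longer past 0.3 in opposite directions.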

How the results depend on the processing

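The count of 1 member higher in all lines (BIK) was 0 at a limit of 1, where the RT112 ratio fails it, and 2 after rescaling to the same sum of FPKM, where BAK1 joins it. Leaving out a line gave 1 to 3 higher members, with BIK, BAK1 and BCL2L1 when RT4 was left out. It gave 0 to 2 lower members, with BAX and BID when RT112 was left out. On the log2 scale, the change of the balance in RT4 cells (-0.34) was 0.19 as a mean of log2(FPKM + 0.1) and 0.088 after the GC correction, and in RT112 cells (0.45) it was 0.047 after the GC correction. In SW780 cells (-0.47) it was -0.061 as a mean of log2 values and -0.16 without MCL1 and BAX. The RT4 ratios of BAX and BAD changed sign with the GC correction, to 0.13 and 0.29. Of 27 member ratios, the GC correction moved 9 more across 0.3, and the other scalings and pseudocounts moved at most 2 each. Quantile normalization took PMAIP1 in RT112 cells from 0.11 to -0.58, and centring or a common sum turned the signs of ratios near 0 (BCL2L1 in RT4, MCL1 in RT4 and RT112). The causes were not tested. Balance values of the same sign within 0.3 of the main value were counted as unmoved, since no replicate spread exists. limma called 0 loci under each alternative, including the fit with no replicate block (0 called) and the fits with a line left out, and the adjusted p-values of BID ranged from 0.158 to 0.973 over them. Unknown depth limits BIK and PMAIP1 most, because they are the lowest members.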
